A study of Acipenser sturio with 24 samples.

Results

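Neural tube closure was compared with the early tailbud in whole sturgeon embryos, through the 6 libraries of NF stages 19, 20 and 22 against NF stages 23, 24 and 26, out of 24 libraries in the series. The libraries were chosen by their stage labels alone, and of 275906 assembled components the 35436 with a deposited value of 1 or more in at least 3 of the 6 libraries were kept. A component is a group of transcripts put together by assembly of the reads, and an identifier such as comp270894_c0 stands for 1 of them. All embryos were of the strain labelled Bester hybrid, from Huso huso (beluga) and Acipenser ruthenus (sterlet), although the organism field of the labels reads Acipenser sturio. They were raised in 0.1 X MMR, a frog embryo salt medium, with no treatment that differed between stages, and RNA was depleted of ribosomal RNA. Each stage has 1 library, so neighbouring stages stand in for replicates, and the embryos and clutches behind a library are not numbered in the labels. The p-values of the group means therefore measure the scatter between neighbouring stages, which includes development within each group. Those of a straight line over the 6 stages, used further on, measure the scatter of these single libraries about that line. Neither measures the spread between embryos or clutches of 1 stage.

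NF stages come from the Nieuwkoop-Faber table of the frog Xenopus. In vertebrate embryos the neural plate folds and its edges fuse into a tube that becomes brain and spinal cord, while neural crest cells leave its dorsal margin. In the tailbud period that follows, the body axis lengthens from a growth zone at the tail, somites form muscle, and eyes, ears, heart, blood and excretory organs begin to differentiate. The deposited table pairs no component with a gene name or a sequence, so the components below are described by their profiles, and no gene, tissue marker or function can be assigned to them.

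Values are abundances normalized before deposit, and their summed totals ran from 500748 at stage 24 to 572863 at stage 23. The number of reads behind 1 unit of value, read from the steps of the low values and set to 1 at stage 26, was lowest at stage 20 (0.566) and highest at stage 19 (1.01), a ratio of 1.79. Absolute depth is unknown, so no counting interval is given. Stages 19 and 24 stood apart from the other 4 libraries. Over all 24 libraries, the first principal component of the residuals about the stage curve (34.1% of their variance, 2225 abundant components) set 7 libraries far below the rest, those of stages 0, 13, 16, 19, 24, 29 and 36, which are called set B here. The other 17 are called set A. The scores of the libraries compared were -15.6 at stage 19 and -20.6 at stage 24, against 7.67 to 9.19 at stages 20, 22, 23 and 26. The labels record no such division. Each group holds 1 set B library, so the division is balanced between the groups. In a fit with a term for the set, 1410 components (3.98%) passed limma's adjusted p threshold of 0.05 for that term, 1202 of them lower and 208 higher at stages 19 and 24. The sets were read from these libraries, so this count is a description. Counts of calls and of detected components are also given without stages 19 and 24.

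Within set A, libraries were less alike the farther apart their stages, and those on either side of the boundary were about as alike as neighbours within a group. Across the 35436 components the Spearman correlation of stage 22 with stage 23, on either side of the boundary, was 0.805, and that of stages 20 and 22, within the closure group, was 0.807. Stages 23 and 26, within the tailbud group, correlated at 0.792. Stages 20 and 26, the ends of set A, correlated at 0.677, and the lowest value of the 15 pairs was 0.569, between stages 19 and 26. The 4 pairs within a group but across the sets had values from 0.698 to 0.734, below the 0.805 of the boundary pair. With the set B libraries included, the order of stages did not hold. Stages 19 and 24, both of set B, had 0.710, above the 0.698 of the neighbours 23 and 24, which are of different sets. The value for stages 22 and 24 was 0.674, under the 0.728 of stages 22 and 26, and that for stages 20 and 24 was 0.627. Components are not independent replicates, and these values describe the libraries.

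Counts of strongly differing components were likewise lower between set A neighbours than across the sets. On the log2(value + 1) scale 54 components differed at least 4-fold between stages 20 and 22, with 36 higher at stage 22. Between stages 22 and 23 the count was 61 (27 higher, 34 lower at stage 23). It was 237 between stages 23 and 26, with 175 higher at stage 26. The 3 steps that join the sets were larger. They held 446 components for stages 19 and 20, 501 for stages 23 and 24, and 621 for stages 24 and 26. Between the 2 set B libraries, stages 19 and 24, the count was 463, of which 335 were higher at stage 24. At 2-fold the order of the smallest steps turned, with 2469 components between stages 20 and 22 and 2051 between stages 22 and 23. Each step sets 1 library against 1 and has no replicate check.

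**Figure D1:**
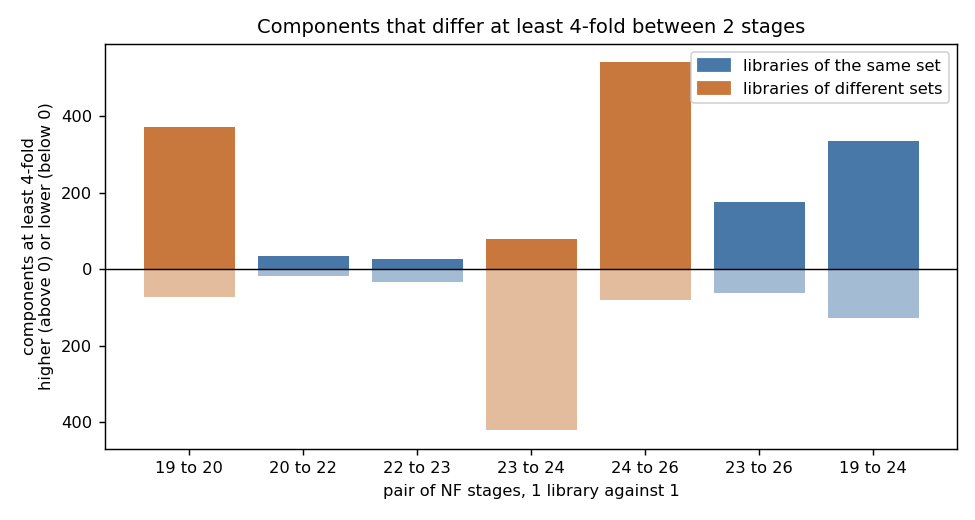
Number of components at least 4-fold higher (above 0) or lower (below 0, paler) at the later of 2 stages, on the log2(value + 1) scale, over 35436 components. The step across the group boundary, 22 to 23, holds 61 components, close to the 54 of the step 20 to 22 within the closure group, and the 3 steps that join libraries of different sets hold 446 to 621.

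The tailbud libraries held more components at a value of 1 or more, and a smaller share of the total in the 10 most abundant ones, though neither difference could pass 0.05 at this number of libraries. The number at a value of 1 or more was 35688, 35701 and 37882 at stages 19, 20 and 22, and 39583, 39824 and 39328 at stages 23, 24 and 26. The groups did not overlap. The mean was 36424 ± 1263 in the closure group and 39578 ± 248 in the tailbud group (SD, n = 3 stages each), at the smallest p that 3 against 3 allow (exact permutation test, two-sided, p = 0.1), so this does not pass 0.05. At a value of 5 or more the groups overlapped, with 8134, 8622 and 9017 against 9494, 8272 and 9599 components (exact permutation p = 0.3). The 10 most abundant components held 36.8%, 35.8% and 34.6% of the summed value at stages 19, 20 and 22 and 34.4%, 33.7% and 30.0% at stages 23, 24 and 26 (exact permutation p = 0.1). For the 100 most abundant the groups overlapped, with 47.01%, 47.6% and 46.2% against 47.4%, 45.2% and 44.9% (exact permutation p = 0.3). Without stages 19 and 24 the difference in detected components was 2664 and that in the share of the 10 most abundant was -3.04 percentage points (exact permutation p = 0.333 each, the smallest that 2 against 2 allow). The lowest share was at stage 26, in which reads per unit were nearly as high as at stage 19. The part of reads per unit of value in these counts was not tested.

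The test of group means called no component. limma on log2(scaled value + 1) passed 0 of 35436 components (0%) at an adjusted p under 0.05, and the lowest adjusted p was 0.134. An unadjusted p under 0.05 was held by 5006 components (14.1%), 2837 higher and 2169 lower in the tailbud group. The median log2 difference over all components was -0.02, with quartiles at -0.31 and 0.30, beside a median SE of 0.31. A difference of at least 4-fold was held by 121 components higher and 17 lower in the tailbud group, and of at least 2-fold by 1360 and 697. The libraries of the groups did not overlap, with the tailbud higher, for 3721 components (10.5%), and with the tailbud lower for 3444 (9.72%). No component stood at 5 or more in all 3 libraries of one group and under 0.5 in all 3 of the other. At a minimum of 1 in place of 5, there were 170 such components in the tailbud group and 75 in the closure group, of the 35436. These passed the filter only through the group in which they stood at 1 or more.

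The 0 calls depend on how the stages are modelled. With a term for the library set, 47 components (0.133%) passed, 39 higher and 8 lower in the tailbud group. Their adjusted p lay between 0.0430 and 0.0481, just under the threshold. The sets were read from these same libraries, so these calls, and all values given below with the set term, are a description. With the spread taken from all 24 libraries in 8 stage groups, 1485 of the 35436 components passed (927 higher, 558 lower). Without stages 19 and 24, a fit on 4 libraries, 1 passed. Without stage 23 the count was 40 and without stage 26 it was 1. A straight line over the order of the 6 stages, in place of 2 group means, was passed by 1139 components at an adjusted p under 0.05, of which 808 rose (2.28%) and 331 fell (0.934%). All 1139 also passed the line with the set term, which called 3224 of the 35436. Of the 47 components called with the set term between group means, 41 were among the 1139.

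The line calls rest in good part on the last stage. Without stage 26 they numbered 13 rising and 3 falling. They numbered 231 and 83 without stage 19, 171 and 56 without stage 20, 433 and 142 without stage 22, and 443 and 152 without stage 23. Without stage 24 the line called 1178 and 477, of which 723 and 291 were among the 808 and 331. Without stages 19 and 24 together it called 1014 and 515, of which 580 and 196 were among them. All 808 rising and all 331 falling components kept the sign of their slope in each of these fits. They were chosen by their slope over the same libraries, which favours a kept sign and a like slope. The median slope of the rising components was 0.45 log2 units per stage step, and 0.43 without stage 26. That of the falling components was -0.40, and -0.37 without stage 26.

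**Figure D2:**
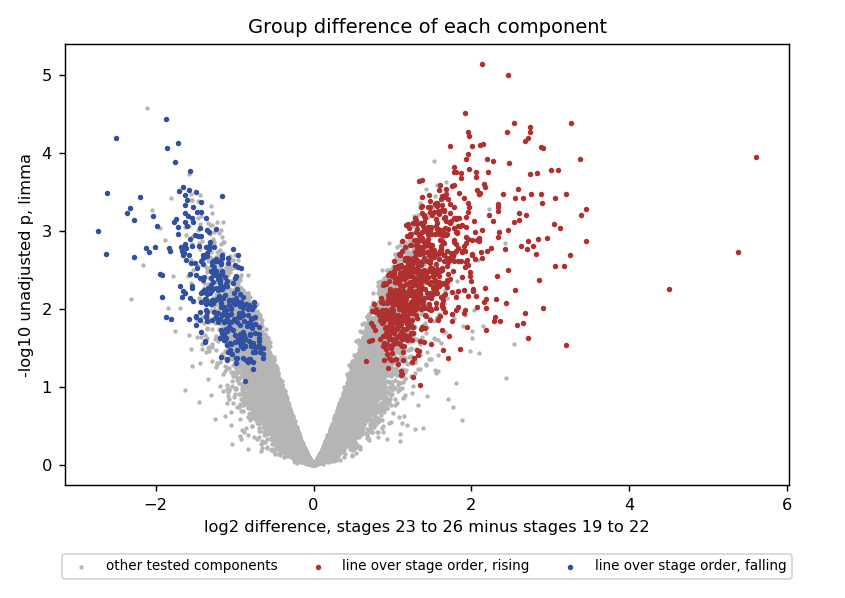
Log2 difference of the group means (stages 23, 24 and 26 minus 19, 20 and 22) against the -log10 of the unadjusted limma p, 1 point for each of 35436 components. Of these, 0 passed the adjusted threshold for the group difference. The coloured points passed the line over stage order (808 rising, 331 falling) and lie at the outer edges, more of them on the right.

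The highest group differences belonged to 8 components among those whose groups did not overlap. All 8 rose along the line over stage order, which their choice from the same 6 libraries favours, and none passed the test of group means. They were at 8.39 or lower up to stage 18. comp270894_c0 had values of 0.470, 2.38 and 3.95 at stages 19, 20 and 22, and 46.8, 134 and 491 at stages 23, 24 and 26. Each stage exceeded the one before it, and every tailbud library lay above every closure library. Its log2 difference was 5.62 (SE 0.809, limma adjusted p = 0.144), and its line rose by 1.74 log2 units per stage step (SE 0.121, adjusted p = 0.00178). It had been between 0.110 and 3.44 at stages 0 to 18, and it reached 1794 at stage 35 before 1018 at stage 36.

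comp263576_c0 was at 1.10, 1.71 and 1.71 in the closure group and at 18.2, 102 and 628 in the tailbud group. Its closure libraries were close together and its tailbud libraries far apart. The log2 difference was 5.38 (SE 1.12, adjusted p = 0.153) and the slope 1.69 per stage step (SE 0.217, adjusted p = 0.0113). It was the only one of the 8 with its highest value at stage 36, of 3424. comp264925_c0 had the same shape at lower values, with 0.13, 0.50 and 0.38 followed by 3.93, 28.7 and 198. It passed the filter only through the tailbud libraries. It reached 944 at stage 35 (log2 difference 4.50, SE 1.17, adjusted p = 0.195; slope adjusted p = 0.0144). In comp263576_c0 and comp264925_c0 the first value above the range of stages 0 to 18 came at stage 23, and in comp270894_c0 at stage 22.

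comp270788_c2 was already above its earlier levels at stage 20 and was lower again after stage 26. It was listed at 0 at stage 18, stood at 0.990, 7.48 and 17.4 in the closure group and at 46.3, 69.7 and 134 in the tailbud group, and was at 66.6 at stage 29 and 9.16 at stage 36. Its slope was 1.16 per stage step (SE 0.0880, adjusted p = 0.00219). Of the 8, it alone had its highest value at stage 26. comp271209_c0 had 2.57, 1.06 and 12.7 in the closure group, 36.3, 37.1 and 102 in the tailbud group and 102 at stage 29, with 30.1 at stage 36 (slope adjusted p = 0.00921). comp267828_c4 followed a like course at lower values, with 0.310, 1.25 and 1.02, then 12.3, 10.1 and 37.5, and 14.2 at stage 36.

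comp260770_c0 and comp263538_c0 stayed high. comp260770_c0 was listed at 0 at stages 10 to 18, at 0.0900, 0.0800 and 0.700 in the closure group, and at 3.03, 15.8 and 34.4 in the tailbud group. It was between 28.5 and 53.2 at stages 29 to 36, and it passed the filter only through the tailbud libraries. comp263538_c0 was at 1.87, 4.43 and 4.34 in the closure group and at 23.5, 34.6 and 118 in the tailbud group, with 274 to 380 at stages 29 to 36. The group difference of comp263538_c0 (3.37, SE 0.540) had an adjusted p of 0.144, and of 0.0430 with the set term. comp267828_c4 (3.26, SE 0.460) likewise had 0.134 and 0.0430.

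**Figure D3:**
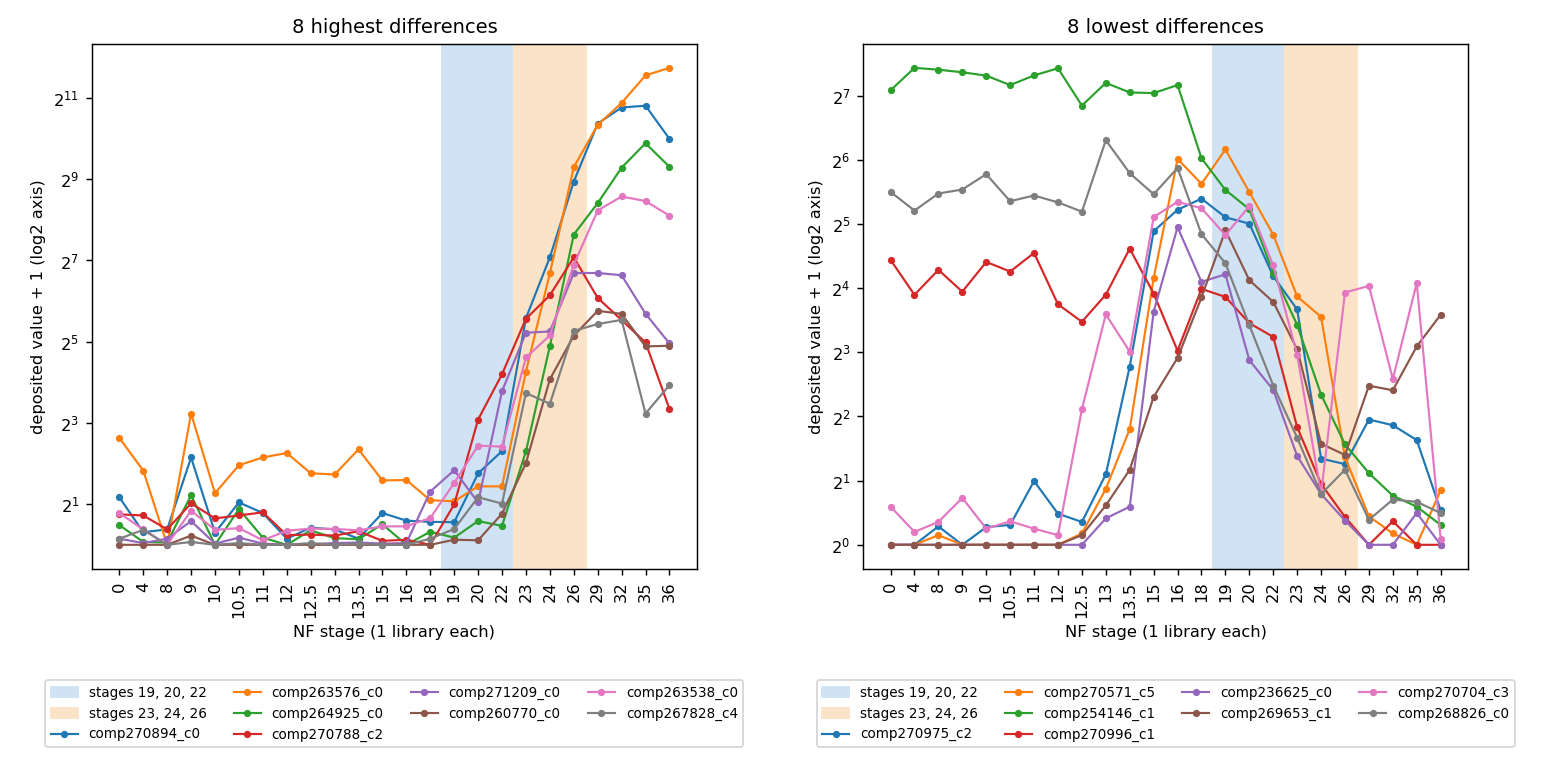
Deposited value + 1 (log2 axis) of 16 components, the 8 of highest group difference at left and the 8 of lowest at right, by NF stage, 1 library per stage, with the compared stages shaded. The 8 on the left lie below 10 up to stage 18 and stand above all their closure values at stages 23 to 26, by which they were chosen. Those on the right are of 2 kinds, with comp254146_c1, comp268826_c0 and comp270996_c1 high from stage 0 and the other 5 low until stage 12.

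The 8 components with the lowest group difference were of 2 kinds, those present from stage 0 on and those that had come up in the neurula. Of the 8, 7 fell along the line, which their choice from the same 6 libraries favours. comp254146_c1 had the highest deposited values of the first kind at stages 0 to 16, from 114 to 172. It was at 45.3, 36.5 and 17.9 at stages 19, 20 and 22, at 9.75, 4.07 and 1.96 at stages 23, 24 and 26, and at 0.240 at stage 36. Every stage from 18 on was lower than the one before. Its slope was -0.85 per stage step (SE 0.0635, adjusted p = 0.00219), and its group difference was -2.62 (SE 0.481, adjusted p = 0.144).

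comp268826_c0 was at 35.6 to 78.1 at stages 0 to 16, at 20.0, 9.72 and 4.59 in the closure group, and at 2.18, 0.730 and 1.25 in the tailbud group (slope adjusted p = 0.0107). comp270996_c1 was between 7.14 and 23.5 at stages 0 to 18. It stood at 13.6, 9.97 and 8.45 in the closure group and at 2.57, 0.930 and 0.350 in the tailbud group, and was listed at 0 at stages 29, 35 and 36. Its group difference of -2.50 (SE 0.373, adjusted p = 0.134) had an adjusted p of 0.0430 with the set term. The decline of comp270996_c1 thus lay later than that of the other 2, which were already lower at stage 19 than at any stage from 0 to 18.

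The other 5 were at higher values in the mid neurula than in the gastrula. comp270975_c2 was at most 1.14 up to stage 13, at 41.1 at stage 18, at 33.4, 31.1 and 17.2 at stages 19, 20 and 22, and at 11.7, 1.54 and 1.39 at stages 23, 24 and 26. Its slope was -0.89 per stage step (SE 0.107, adjusted p = 0.00660). comp270571_c5 had its highest value at stage 19, of 70.6, followed by 44.2 and 27.5 and then by 13.6, 10.7 and 1.58 (slope adjusted p = 0.00434), with at most 0.800 at stages 29 to 36. comp236625_c0 was listed at 0 at stages 0 to 12.5, reached 29.9 at stage 16, and went from 17.6, 6.35 and 4.33 to 1.61, 0.73 and 0.30 (slope adjusted p = 0.00434).

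comp269653_c1 also peaked at stage 19, with 28.9, 16.4 and 12.8 in the closure group and 7.26, 1.98 and 1.64 in the tailbud group (slope adjusted p = 0.00380), and then stood higher again, at 11.0 at stage 36. comp270704_c3 is the exception of the 8. It was at 27.4, 37.8 and 19.5 in the closure group and at 6.81, 0.740 and 14.3 in the tailbud group, so its stage 24 value was the lowest of the 6 and stage 26 lay above stage 23. The line was not passed (adjusted p = 0.254). Among the later set B libraries it was at 15.4 at stage 29 and 0.0700 at stage 36, beside 4.99 and 15.9 at stages 32 and 35.

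Some abundant components passed the line as well. These were picked after their values were seen, as the highest by mean value among the line calls, and levels of different components are not compared, since division by length is not stated. comp269525_c1 had values of 753, 972 and 1395 in the closure group and 2967, 2461 and 4747 in the tailbud group, without overlap. It rose by 0.51 log2 units per stage step (SE 0.0630, adjusted p = 0.00768), and its group difference of 1.63 (SE 0.314) had an adjusted p of 0.144, and of 0.0460 with the set term. It was at 35.2 at stage 15, at 5215 at stage 29 and at 446 at stage 36. comp254831_c4 went from 472, 601 and 715 to 1343, 1383 and 2588 (slope adjusted p = 0.00921) and then stayed between 2189 and 2296 at stages 29 to 36.

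comp256815_c0 had 301, 406 and 559 in the closure group and 950, 741 and 1812 in the tailbud group (slope adjusted p = 0.0144), and was at its highest, 4713, at stage 36. comp272523_c0 took most of its rise within the closure group, with 194, 525 and 1262 against 1141, 1352 and 1538 in the tailbud group, so that the groups overlapped (slope adjusted p = 0.0362). Among abundant components that fell, comp272735_c0 went from 1123, 596 and 307 to 188, 190 and 149 (slope -0.59, SE 0.0849, adjusted p = 0.0125). It was at 795 at stage 36, a set B library like that of stage 19, while stages 32 and 35, of set A, held 189 and 254. comp261355_c0 went from 718, 543 and 487 to 377, 325 and 168 (slope adjusted p = 0.0144).

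The 6 most abundant components by mean value passed neither test. comp219603_c0 was at 93223, 85362 and 88638 at stages 19, 20 and 22 and at 89091, 69593 and 70110 at stages 23, 24 and 26. As deposited, its stage 23 value lay above 2 of the closure values, and after scaling the groups did not overlap (log2 difference -0.30, SE 0.232, adjusted p = 0.632). comp262764_c6 was between 50681 and 56535 in all 6 libraries. Together these 2 held from 21.6% of the summed value at stage 26 to 28.7% at the stage where they held most. comp272848_c0 and comp138204_c0 varied within the groups, the latter with 5617, 3326 and 3016 against 5976, 5934 and 3713. comp263949_c2 had 4668, 7271 and 5980 against 7009, 5677 and 5529 (log2 difference -0.02, SE 0.248), and its sign turned in 4 of the 15 alternatives. comp263001_c0 had 2034, 2995 and 4487 against 4823, 3779 and 5952, its highest value of the 24 stages, and was at 912 at stage 36 (slope 0.24, SE 0.0651, adjusted p = 0.0883).

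The 8 components called lower with the set term included some with a sharp step between the groups. They were looked at after their values were seen, and 4 are given here. comp118598_c0 was at 2.85, 2.56 and 2.43 in the closure group, listed at 0 at stages 23, 24, 26 and 29, and at no more than 0.630 at any other stage. It passed the filter only through the closure libraries. Its 3 highest values of the 24 were those of stages 19, 20 and 22. comp266799_c2 was at 10.2, 10.1 and 11.0 in the closure group and at 3.85, 1.72 and 1.65 in the tailbud group. comp265073_c1 was at 4.15, 4.90 and 4.22 against 1.03, 0.510 and 0.570. comp263267_c2, at 228 to 394 at stages 0 to 12, was at 35.5, 41.2 and 32.3 and then at 16.4, 8.74 and 7.91. In comp118598_c0, comp266799_c2 and comp265073_c1 the closure libraries were nearly level. Without the set term the adjusted p of these 4 lay at 0.134 (comp118598_c0, comp266799_c2, comp265073_c1) and 0.144 (comp263267_c2).

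The classes called by the line were followed into libraries that the line did not use. Of the 808 rising components, 98.5% stood higher in the late tailbud (mean of stages 29, 32, 35 and 36) than in the mid neurula (stages 15, 16 and 18), against 54.2% of all tested components. Of the 331 falling components 3.93% did. In set A libraries alone (stages 32 and 35 against 15 and 18) the shares were 98.4%, 1.81% and 55.9%. The share over all components depends on the scaling, from 49.2% with the trimmed mean to 75.2% with values as deposited, while that of the rising components stayed between 97.6% and 99.9%. The median difference of the late tailbud from the mid neurula was 2.27 log2 units for the rising and -1.96 for the falling components, and 0.08 over all.

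The rising components mostly went on at a high level after stage 26. Their late tailbud mean exceeded the early tailbud mean for 539 (66.7%, against 32.3% of all tested components) and lay below the closure mean for 58 (7.18%, against 68.2%). Their highest mean of the 8 stage groups was in the late tailbud for 511 (63.2%, against 16.5% of all tested components) and in the early tailbud for 250 (30.9%, against 21.6%). The early tailbud and closure means come from the libraries that chose the class, so the comparisons with them are not independent of that choice. The filter asks for values in stages 19 to 26, which bears on the shares over all components. Taken over the class, the median relative to the closure mean was -0.67 log2 units in the stage 0 library. It was 0.81 and 1.69 in the libraries of stages 23 and 26, and 1.88 and 1.44 in those of stages 29 and 36. The rise between stages 19 and 26 is how the class was chosen. The near level course at later stages is not.

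The falling components included both early and later ones. Their highest mean was in the closure group for 155 (46.8%, against 35.0% of all tested components) and in the mid neurula for 135 (40.8%, against 11.9%), and in the late tailbud for none of the 331, against 16.5%. A fall after closure, by which they were chosen, favours a peak in the closure group. A value of 1 or more in all 7 libraries of stages 0 to 11 was held by 146 of them (44.1%, against 26.9% of all tested components), and 130 (39.3%, against 51.6%) were under 0.5 in all 7. Of the rising components 244 (30.2%) were present early in this sense and 345 (42.7%) were under 0.5 throughout. These cutoffs are fixed values, and the classes differ in level from the tested components as a whole. A mean under 2 over stages 19 to 26 was held by 39 of the 331 falling components, against 17247 of all tested components. The part of level in these shares was not tested. The median of the falling class lay at -2.03 log2 units in the stage 0 library. It was 0.29 and 0.41 in the set B libraries of stages 16 and 19. In the set A libraries of stages 15, 18 and 20 it was -0.26, 0.14 and -0.06. The median was -1.78 and -2.02 in the libraries of stages 26 and 36, so it ended near its level in the stage 0 library.

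**Figure D4:**
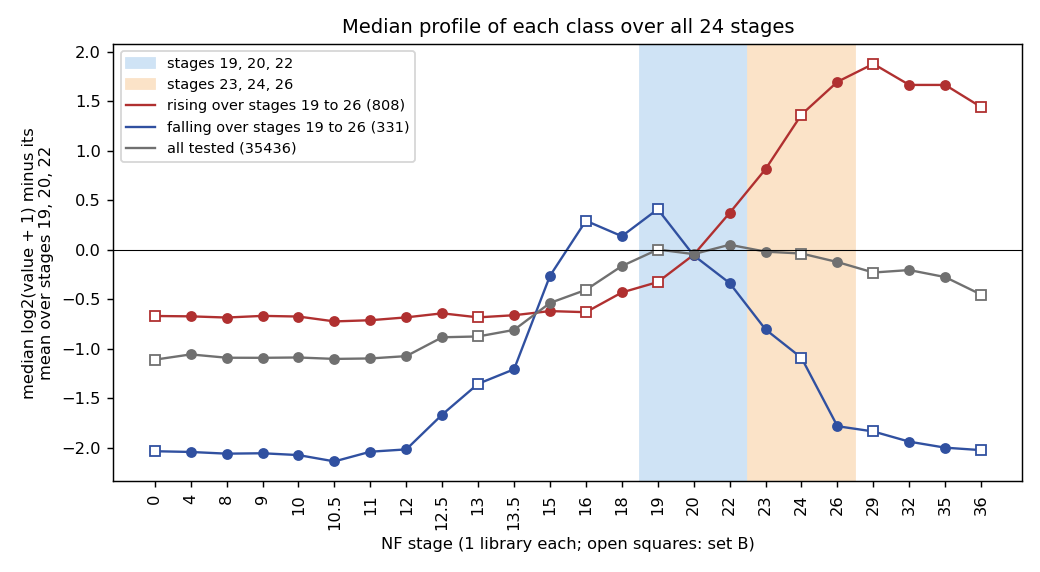
Median over components of log2(scaled value + 1), minus each component's mean over stages 19, 20 and 22, for the 808 rising, the 331 falling and all 35436 tested components, by NF stage, with open squares for set B libraries. The slopes between stages 19 and 26 chose the classes. Outside them the rising class stays between 1.44 and 1.88 at stages 29 to 36, and the falling class lies at -2.03 in the stage 0 library and -2.02 in the last library.

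Within set A, most of these components took their largest step after stage 23, which the line that chose them favours. Of the 3 steps 20 to 22, 22 to 23 and 23 to 26, the last was the largest rise for 554 of the 808 rising components (68.6%) and the largest fall for 221 of the 331 falling ones (66.8%). The step across the group boundary was the largest for 155 (19.2%) and 57 (17.2%). Over all tested components, the largest rise lay in the last step for 32.2% and in the boundary step for 34.2%. The largest fall was not tallied over all tested components, so the shares of the falling class have no such value beside them. The line that chose the classes ran over stage order, in which the last step passes stage 24 and the other steps join neighbours. A component that lies on such a line takes its largest set A step there, so these shares follow from the choice. The tested components as a whole were not chosen by a line, so their shares are not a like reference. The line also used stage 26 and called few components without it. The median rise was 0.36, 0.53 and 0.95 log2 units over the 3 steps, and the median of the falling class was -0.39, -0.33 and -0.83. The last step spans stage 24 as well, and the time between NF stages is not given for these embryos.

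Over the same stages the share of the summed value held by the rising class grew by more than that of the falling class shrank. The classes were chosen by their slopes over these stages, which favours both changes, and they differ in size (808 and 331 components). The rising components held 1.45%, 1.97% and 2.66% at stages 19, 20 and 22 and 3.76%, 4.89% and 7.70% at stages 23, 24 and 26. They had held 0.585% at stage 15 and held 9.61% at stage 29 and 10.1% at stage 36. The falling components went from 3.07%, 2.34% and 1.85% to 1.41%, 1.195% and 0.723%. They had held 3.98% at stage 13, another set B library, and held 0.523% at stage 35. The 2 most abundant components, in neither class, held 28.7% at stage 19 and 21.6% at stage 26.

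**Figure D5:**
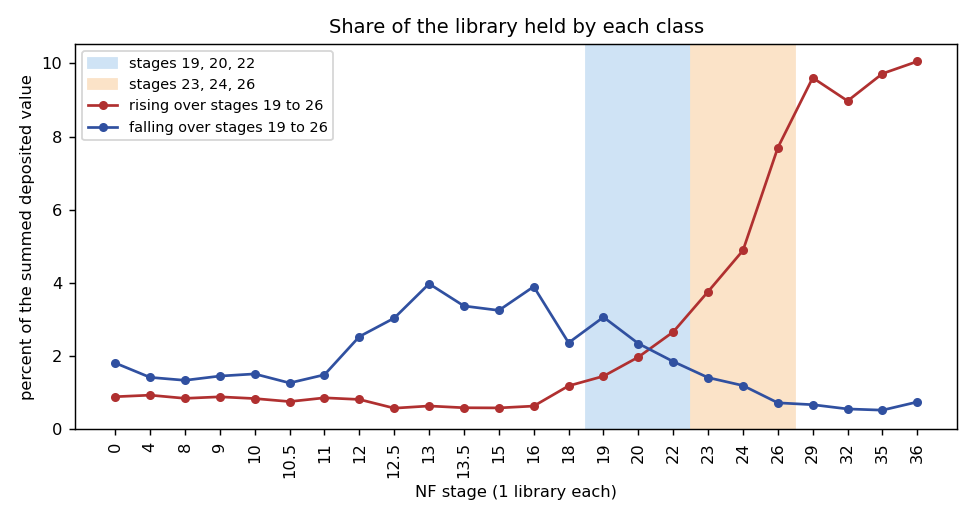
Percent of the summed deposited value of each library held by the 808 components rising and the 331 falling over stages 19 to 26, by NF stage, with the compared stages shaded. The rising class goes from 1.45% at stage 19 to 7.70% at stage 26 and lies between 8.98% and 10.1% at stages 29 to 36, which the line did not use.

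Line calls were more frequent among components of higher value. They made up 0.951% of the 17247 components with a mean value under 2, 3.74% of the 9353 from 2 to 5, 6.10% of the 6439 from 5 to 20, 8.83% of the 2038 from 20 to 100 and 14.5% of the 359 at 100 or more. In each of these classes more components rose than fell, with 95 against 85 from 20 to 100 and 31 against 21 at 100 or more. Low values are scattered more by few reads and are compressed by the pseudocount. How much each contributes to the lower share was not tested.

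Identifiers with a shared number did not always move alike. The 35436 components carry 28643 numbers, and 52 numbers had at least 2 members past the line, with the same direction in 46. Rising calls outnumber falling ones, which favours a shared direction. In the wider tally, 440 numbers had at least 2 members whose groups did not overlap, and 307 of these had 1 direction. Reads can be divided between near-identical members by assembly and counting, the more so in a hybrid of 2 species, so such members are not independent. comp263538_c4 rose as comp263538_c0 did (slope adjusted p = 0.0252), listed at 0 at stages 19, 20 and 22 and at 1.98, 1.90 and 6.20 at stages 23, 24 and 26. comp263538_c2 did not pass the line (adjusted p = 0.104), at 0, 0.30 and 0 against 1.25, 1.16 and 2.31. Both comp263538_c4 and comp263538_c2 passed the filter only through the tailbud libraries. A rise like that of comp267828_c4 was also called in comp267828_c0 (slope adjusted p = 0.01935). Likewise comp270571_c0 and comp270996_c0 fell as comp270571_c5 and comp270996_c1 did (slope adjusted p = 0.0144 and 0.0363). Other members differed, but of those looked at, none that moved against its named component passed the line. comp270788_c3 stood at 28.7, 21.7 and 25.1 and then at 20.5, 16.6 and 10.8, and did not pass (slope adjusted p = 0.0645), while comp270788_c2 rose. comp263576_c2 stood at 11.0, 5.98 and 5.17 and then at 5.83, 4.72 and 3.72, also without passing (adjusted p = 0.128), beside the rise of comp263576_c0.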

How the data were processed

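Each of 24 libraries has a signal for every component in the table deposited by the authors, an abundance normalized beforehand, and the labels gave each column its stage (0 unmapped). Whether the unit is FPKM or TPM is not stated; 0.431% of the values above 0 in the 6 libraries are whole numbers, so they are not counts. Per the submitters' processing notes, RSEM, Bowtie, Trimmomatic and CASAVA 1.8.2 were used, without stated roles. No assembler is named.

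Values of the 6 libraries were divided by median-of-ratios factors (0.953 to 1.07) over 63200 components above 0 in all 6, and log2(scaled value + 1) was fitted with limma 3.58.1 (R 4.3.3), with a mean-variance trend and robust variances. Benjamini-Hochberg adjustment covered all 35436 components kept. On this scale, differences of low components are compressed. Profiles over 24 libraries used factors from 15471 components. Relative reads per unit were read from the modal ratio of values from 0.1 to 0.6 in 15 library pairs, which lay within 0.01 (log2) of the fit. Per-library numbers were tested with exact permutation tests, two-sided. On simulated data of 35436 components, the group means recovered 53% of changes of 2 and 83% of changes of 4 on the log2 scale, with 7 unchanged components called. The line recovered 19% of total changes of 2 and 73% of 4, with 4 called. The changes were put on 200 components with a mean log2(scaled value + 1) above 1. They were an even shift between the groups, or an even line over the stages, with independent normal scatter. The recovered shares thus do not carry over to components that also change within a group, and a total change along the line is not a group difference.

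Named components are the 8 highest and 8 lowest group differences without overlap at an unadjusted p under 0.05 and a mean of at least 1, since no component was called, and the 6 highest by mean. Others were chosen after their values were seen. The rule's other parts, for called components that returned later and for components in 1 group only, found none. The comparison, lists and tests were chosen with earlier results of these data known.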

Additional observations from a re-analysis of the deposited data

How the results depend on the processing

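The count of group calls was 0, with 5006 at an unadjusted p under 0.05. It was also 0 under 3 other scalings, 3 other pseudocounts, a filter at 5, and no trend. It stayed 0 at a minimum fold of 2, as it must, since that test on the same fit is stricter. It was 41 without a filter (36 up, 5 down, of 240369 tested), 1485 in the fit on 24 libraries (927 up, 558 down), 47 with the library set term (39 up, 8 down), 1139 with the line (808 up, 331 down) and 3224 with line and set term (1897 up, 1327 down). With stages 19 and 24 left out it was 1, which was lower, with none higher. Leaving out 1 library gave 0 to 40 calls (0 to 31 up, 0 to 9 down). The cause of these changes was not tested. The step from stage 22 to 23 held 2051 components at 2-fold. Line calls numbered 488 rising of 9087 tested at a filter of 5, and 167 falling of 240369 tested without a filter. With stages 19 and 24 left out they numbered 515 falling of 35436 tested. Leaving out 1 library gave 13 to 1178 rising and 3 to 477 falling. The line's own alternatives and line with set term were chosen after seeing the data. Over 40 components in 15 alternatives, there were 46 cases, from 28 components, that passed the threshold where the reported fit did not. None of these had the sign turned. Some of the 40 were named because they passed with the set term, which is among the 15 alternatives. comp263949_c2 alone turned sign, in 4 alternatives (up to 0.12). Low values near 1 are limited by a read depth that is not known. No paired analysis was possible because the stages have a single library each.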
